A study of Mus musculus with 18 samples.

Results

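The 35 genes of cholesterol and fatty acid synthesis and of its control listed here were followed over the day in mouse distal colon. A member was represented by the probe set that carried its symbol in the platform annotation and had the highest mean signal. Of the 35 genes, 34 had such a probe set, 33 passed the filter on low signal and were tested among 12870 genes, Acacb did not pass it, and Acat2, the cytosolic thiolase that makes acetoacetyl-CoA, is not analysed here. The tissue was total RNA of distal colon, resected just above the anus after laparotomy, and the series set out to find rhythmic transcripts. The mice had spent 2 weeks in 12 h of light and 12 h of dark and ate freely. Collections were 4 h apart, and those of the light, 8am, 12pm and 4pm, lay 1, 5 and 9 h after lights on, while those of the dark, 8pm, 12am and 4am, lay 13, 17 and 21 h after it. Each time had 3 arrays, lettered a to c. Strain, age and sex are not given in the labels, nor whether each array held the RNA of 1 animal or a pool, so a p-value here reflects only how these samples vary, which may be technical.

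Cells build cholesterol from acetyl-CoA through mevalonate, farnesyl diphosphate, squalene and lanosterol, and they build fatty acids from the same acetyl-CoA through malonyl-CoA and fatty acid synthase, after which elongases and desaturases finish the chains. The transcription factors encoded by Srebf2 and Srebf1 switch on the sterol and the fatty acid branch when membrane sterol is low, and Insig1 holds them back in the endoplasmic reticulum when sterol is plentiful. In the liver many of these genes are known to follow the feeding rhythm, and the colonic epithelium, which renews itself continually, also makes its own membrane lipid.

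Promoters are shown for Tm7sf2, Lss and Fasn, which are among the members that differed between collection times, and for Hmgcs1, which passed no test with all arrays but holds a match to the sterol element. The SREBP proteins act through a sterol element that usually lies beside a CCAAT box bound by the factor NF-Y. RefSeq promoters of build GRCm38.p6, from 250 bases before to 50 bases after a start, were held for 28 of the 35 members, 35 promoters in all. The lines below print 4 of them, 5′ to 3′ on the gene's strand, with a match to the sterol element TCACNCCAC or to CCAAT, on either strand, in capitals. The CCAAT box therefore also appears as its reverse complement, ATTGG. Tm7sf2 is at chr19:6067801-6068100 on the minus strand, Hmgcs1 at chr13:119690101-119690400 on the plus strand, Lss at chr10:76531355-76531654 on the plus strand and Fasn at chr11:120824498-120824797 on the minus strand.
Tm7sf2: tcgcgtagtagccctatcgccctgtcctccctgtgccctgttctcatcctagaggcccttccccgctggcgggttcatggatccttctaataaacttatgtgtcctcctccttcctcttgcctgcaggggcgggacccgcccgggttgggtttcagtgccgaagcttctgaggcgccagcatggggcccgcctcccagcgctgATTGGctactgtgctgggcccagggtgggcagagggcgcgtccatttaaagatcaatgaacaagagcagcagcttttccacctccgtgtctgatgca
Hmgcs1: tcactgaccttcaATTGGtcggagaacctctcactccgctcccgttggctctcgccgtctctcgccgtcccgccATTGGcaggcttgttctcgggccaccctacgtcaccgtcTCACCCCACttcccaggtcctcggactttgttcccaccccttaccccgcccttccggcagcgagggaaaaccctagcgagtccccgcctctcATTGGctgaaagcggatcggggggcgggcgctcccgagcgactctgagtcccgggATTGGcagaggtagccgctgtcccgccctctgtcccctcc
Lss: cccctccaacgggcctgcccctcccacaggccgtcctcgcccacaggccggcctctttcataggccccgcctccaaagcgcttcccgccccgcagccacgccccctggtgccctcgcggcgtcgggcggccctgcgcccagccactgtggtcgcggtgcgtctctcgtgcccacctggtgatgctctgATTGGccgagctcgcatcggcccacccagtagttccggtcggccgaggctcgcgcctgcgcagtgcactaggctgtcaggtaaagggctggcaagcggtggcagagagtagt
Fasn: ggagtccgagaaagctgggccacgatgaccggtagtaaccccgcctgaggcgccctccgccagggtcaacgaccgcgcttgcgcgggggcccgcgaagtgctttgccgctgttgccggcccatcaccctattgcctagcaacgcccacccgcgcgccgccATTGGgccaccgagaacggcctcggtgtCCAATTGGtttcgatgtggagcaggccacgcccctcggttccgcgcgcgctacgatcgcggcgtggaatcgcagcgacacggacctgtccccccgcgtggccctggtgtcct

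The sterol element was found in 2 members: in Hmgcs1, at position -137 from the start, and in 1 of the 2 Mlxipl promoters, at position -136. That is 5.71% of the 35 member promoters, against 1.24% of all 32851 promoters of the same length. CCAAT was found in 25 of the 35 member promoters (71.4%, 24 genes), against 37.4% of all promoters. Tm7sf2 and Lss each held 1 match to it, Fasn 3 and Hmgcs1 4. The E-box CACGTG, which clock proteins among others bind, was found in 6 member promoters (17.1%), those of Hsd17b7, Sc5d, Dhcr7, Insig1, Mlxipl and Elovl5, against 7.15% of all. The D-box TTATGNAA was in 0 of the 35 and in 3.38% of all promoters. These matches are descriptions of the letters in the windows and were not tested.

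Signals are given as log2(signal + 16) throughout, and the level of a probe set is compared only with itself. Array quality bears on many of the values. In the Gapdh control the 3′ signal divided by the 5′ signal, a ratio that is high when RNA is degraded or poorly copied, was 0.746 to 1.12 in 14 arrays, 2.33 in 4pm c, 34.3 in 4pm b, 36.0 in 4am a and 18.2 in 4am b. Results that rest on the last 3 arrays are therefore given with and without them. All 10 colonocyte markers were measured and passed the filter.

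**Figure D1:**
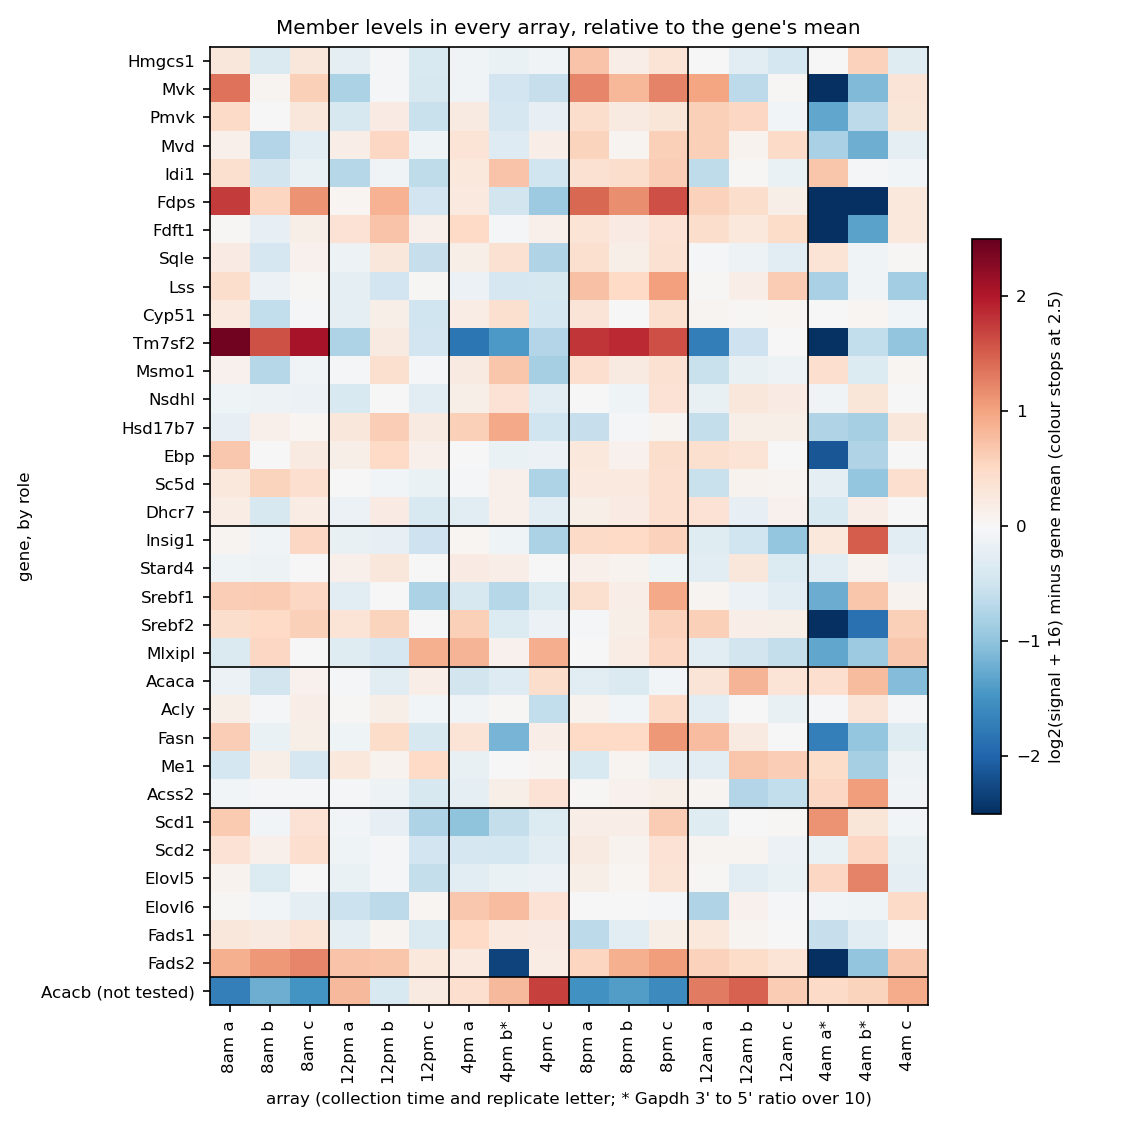
Colour shows log2(signal + 16) minus the gene's mean over all arrays for 33 tested members and Acacb (rows, ordered by role) in each of the 18 arrays (columns, ordered by time). Tm7sf2 stands high in the 6 arrays of 8am and 8pm, Acacb stands low there, and Fdps, Fdft1, Srebf2 and Fads2 are lowest in 4am a or 4am b.

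No member followed a 24 h cosine curve past the threshold. In the limma test of the curve 0 of 33 members reached an adjusted p of 0.05, where 0.0389% of all genes did, and the lowest adjusted p of a member was 0.948. Before adjustment 3 members had p under 0.05, which is 9.09% of them against 3.95% of all genes: Mvd, Mlxipl and Scd1. The members' median amplitude was 0.20 on the log2 scale and that of all genes 0.19, and 12 of the 33 members (36.4%) had an amplitude of 0.25 or more, against 31% of all genes. Fitted peaks lay in the light for 16 members and in the dark for 17, but they were not even over the cycle. Those of the sterol pathway lay from 6.95 h (Hsd17b7) to 15.4 h (Nsdhl), apart from Tm7sf2 at 3.59 h and Sc5d at 3.06 h. This grouping was not tested or set against all genes. With a 12 h term added to the curve, which takes up part of the difference between times that do not follow 1 wave, 5 members (15.2%) had p under 0.05, against 8.55% of all genes, and 0 were called.

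**Figure D2:**
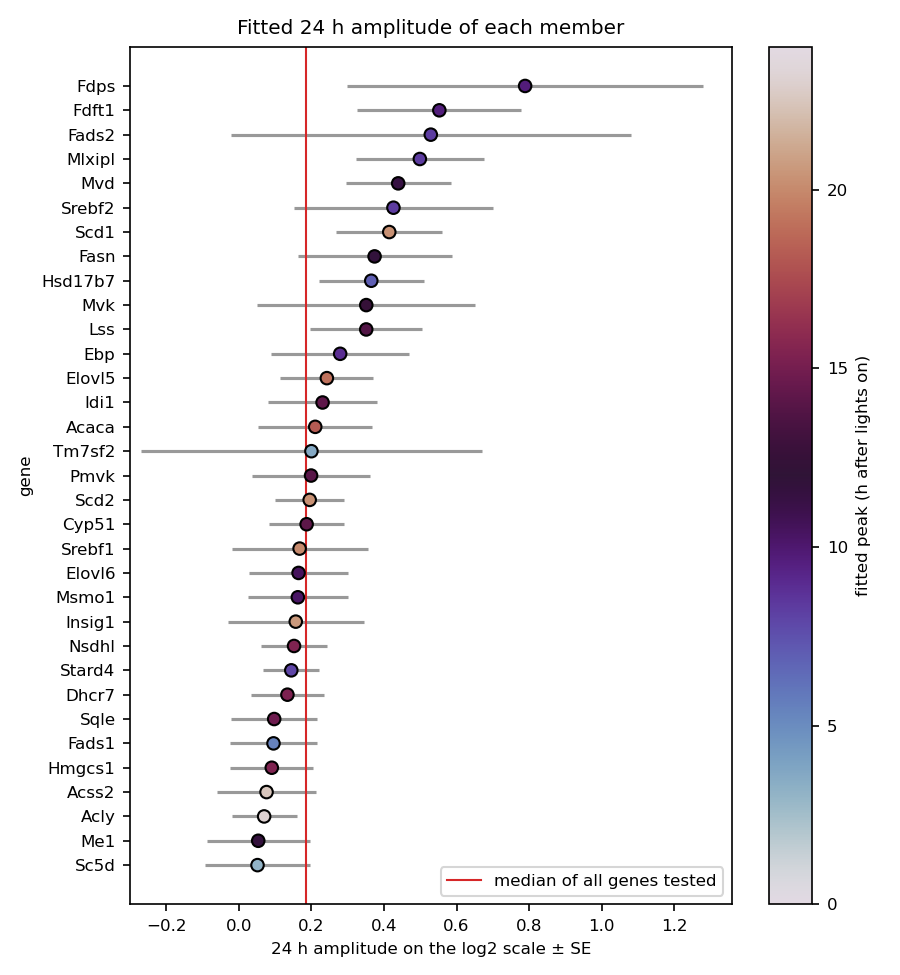
Each point is the fitted 24 h amplitude of 1 tested member on the log2 scale with its SE, coloured by the fitted peak in hours after lights on; the red line is the median of all genes tested. Most members lie near that line. Among the largest fitted amplitudes, Fdps at 0.79 ± 0.49 and Fads2 at 0.53 ± 0.55 have wide errors, and Mlxipl at 0.50 ± 0.18 and Mvd at 0.44 ± 0.14 narrower ones.

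The 2 largest amplitudes of the sterol pathway belonged to Fdps and Fdft1. Fdps makes farnesyl diphosphate, the branch point of the pathway. Its levels were 12.37, 11.16 and 11.76 at 8am, then 10.67, 11.49 and 10.14 at 12pm, then 10.87, 10.17 and 9.72 at 4pm, then 12.05, 11.78 and 12.24 at 8pm, then 11.20, 11.06 and 10.77 at 12am, then 6.89, 6.03 and 10.89 at 4am. The pair of very low values are 4am a and 4am b, while 4am c lay among the values of 12am. The fitted amplitude was 0.79 ± 0.49 (SE) with all 18 arrays and 0.29 without 4pm b, 4am a and 4am b. Fdft1, squalene synthase, read 11.22, 10.99 and 11.35 at 8am, then 11.57, 11.91 and 11.33 at 12pm, then 11.70, 11.17 and 11.32 at 4pm, then 11.54, 11.40 and 11.56 at 8pm, then 11.63, 11.47 and 11.67 at 12am, then 8.44, 9.86 and 11.46 at 4am. It too was low only in 4am a and 4am b, and its amplitude of 0.55 ± 0.23 was 0.13 without the 3 arrays. Mvd, the decarboxylase that ends the mevalonate steps, had levels of 9.68, 8.83 and 9.28 at 8am, then 9.72, 10.07 and 9.45 at 12pm, then 9.89, 9.23 and 9.72 at 4pm, then 10.11, 9.62 and 10.15 at 8pm, then 10.14, 9.65 and 10.02 at 12am, then 8.74, 8.33 and 9.33 at 4am. The lowest values were those of 4am b, 4am a and 8am b, the times overlapped, and the amplitude was 0.44 ± 0.14 with a fitted peak at 11.4 h, or 0.34 without the 3 arrays.

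In the other role groups the largest amplitudes were those of Mlxipl, Srebf2, Fasn, Acaca, Fads2 and Scd1, with Fasn at 0.37 ± 0.21, or 0.28 without the 3 arrays. Mlxipl, which encodes the carbohydrate-responsive factor ChREBP, read 7.94, 8.82 and 8.30 at 8am, then 7.99, 7.87 and 9.19 at 12pm, then 9.14, 8.40 and 9.21 at 4pm, then 8.32, 8.49 and 8.81 at 8pm, then 8.02, 7.84 and 7.70 at 12am, then 7.01, 7.38 and 8.97 at 4am. Arrays of 12pm and of 4am spread over more than 1 log2 unit, and the amplitude was 0.50 ± 0.18, or 0.34 without the 3 arrays. Srebf2 read 11.27, 11.31 and 11.41 at 8am, then 11.16, 11.38 and 10.81 at 12pm, then 11.41, 10.48 and 10.67 at 4pm, then 10.79, 10.96 and 11.40 at 8pm, then 11.42, 10.99 and 10.97 at 12am, then 7.98, 8.95 and 11.42 at 4am. Its amplitude of 0.43 ± 0.27 was 0.17 without the 3 arrays. Acaca, the acetyl-CoA carboxylase that commits carbon to fatty acids, read 9.69, 9.38 and 9.95 at 8am, then 9.80, 9.58 and 9.997 at 12pm, then 9.38, 9.51 and 10.29 at 4pm, then 9.58, 9.48 and 9.77 at 8pm, then 10.15, 10.68 and 10.19 at 12am, then 10.27, 10.64 and 8.76 at 4am. Its 12am values lay above those of 8am and 8pm, with an amplitude of 0.21 ± 0.16, or 0.15 without the 3 arrays. Scd1, a stearoyl-CoA desaturase, read 11.95, 11.23 and 11.67 at 8am, then 11.24, 11.09 and 10.53 at 12pm, then 10.30, 10.70 and 10.96 at 4pm, then 11.47, 11.46 and 11.95 at 8pm, then 11.00, 11.29 and 11.33 at 12am, then 12.43, 11.61 and 11.22 at 4am. All 3 values of 4am lay above all 3 of 4pm, and the amplitude was 0.41 ± 0.15 with a fitted peak at 20.3 h. The amplitude was 0.28 without the 3 arrays, with an unadjusted limma p of 0.242. Fads2, a polyunsaturated fatty acid desaturase, read 12.56, 12.75 and 12.88 at 8am, then 12.38, 12.35 and 11.92 at 12pm, then 11.90, 9.35 and 11.84 at 4pm, then 12.20, 12.54 and 12.70 at 8pm, then 12.25, 12.12 and 12.00 at 12am, then 5.15, 10.68 and 12.34 at 4am. Its 3 lowest values were those of 4am a, 4pm b and 4am b, and its amplitude of 0.53 ± 0.55 was 0.22 without them.

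Differences between times did appear, with more calls between sets of times 12 h apart than between the times within a set. A limma test of any difference between the 6 times called 4 of 33 members (12.1%), against 17% of all genes: Tm7sf2 with an adjusted p of 0.000796, Lss with 0.0203, Fdps with 0.0225 and Mvd with 0.0465. Split into its parts, the test of times 12 h apart called 0 of 33 members, against 0.0777% of all genes, with 5 members (15.2%) at an unadjusted p under 0.05, against 11% of all genes. Mvd (unadjusted limma p 0.0156) and Lss (0.0298) were among these 5, so the lack of calls does not show that levels repeat after 12 h. The test between the 3 sets of such times, 8am with 8pm, 12pm with 12am and 4pm with 4am, called 10 of 33 (30.3%), against 35% of all genes. Both shares of called members lay near or under those of all genes, so neither is a result about lipid synthesis genes. No label names a batch, and a rhythm of 12 h and a common handling of the arrays of a set cannot be told apart. In total 5 of the 10 belonged to the sterol pathway (Mvk, Fdps, Lss, Tm7sf2, Ebp), 2 to its regulation (Insig1, Srebf1), 1 to fatty acid synthesis (Fasn) and 2 to desaturation and elongation (Scd2, Elovl6).

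Tm7sf2, a sterol reductase that acts on the products of lanosterol, differed most. Its levels, from probe set 1460684_at, were 11.39, 10.58 and 11.05 at 8am, then 10.77, 10.84 and 10.59 at 8pm. They were 8.21, 9.20 and 8.51 at 12pm, then 7.24, 8.45 and 8.99 at 12am, then 7.16, 7.54 and 8.24 at 4pm, then 6.51, 8.36 and 8.00 at 4am. All 6 arrays of 8am and 8pm lay above all other 12, which held for 1 of 33 members and for 1.3% of all genes. The set of 12pm and 12am was lower by a log2 difference of -2.43 ± 0.33 (SE, n = 6 arrays per set), a 5.40-fold difference, and the set of 4pm and 4am by -3.23 ± 0.33, or 9.40-fold. The limma adjusted p between sets was 7.140e-05, and 1.656e-05 without the 3 arrays. The call held under all 30 alternatives. Within its set, 8am differed little from 8pm, and a 24 h curve gave an amplitude of only 0.20 ± 0.47.

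**Figure D3:**
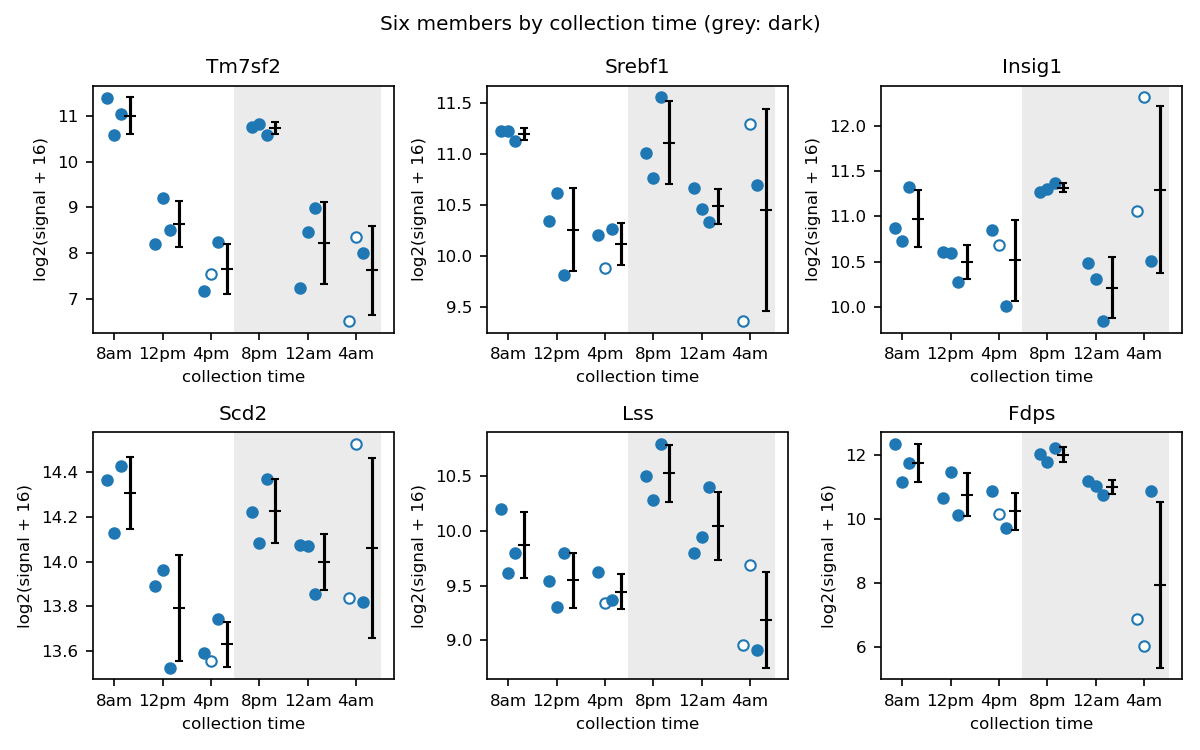
Points are log2(signal + 16) of each array by collection time for 6 members called between sets, with the mean and SD of the 3 arrays beside them; open points are 4pm b, 4am a and 4am b, and grey marks the dark. Tm7sf2 lies between 10.58 and 11.39 at 8am and 8pm and between 6.51 and 9.20 at the other times, and the open points pull Fdps down at 4am.

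Mvk, mevalonate kinase, read 9.67, 8.38 and 8.90 at 8am, then 9.54, 9.13 and 9.54 at 8pm. It read 7.52, 8.28 and 7.91 at 12pm, then 9.30, 7.66 and 8.33 at 12am, then 8.22, 7.83 and 7.73 at 4pm, then 5.79, 7.20 and 8.64 at 4am. The set of 12pm and 12am lay lower by -1.03 ± 0.38 and that of 4pm and 4am by -1.63 ± 0.38, which was -0.89 without the 3 arrays (limma adjusted p 0.0142 with and 0.0162 without them). The sets overlapped in single arrays, such as 12am a and 8am b. For Fdps, whose arrays are given above, the differences were -1.01 ± 0.57 and -2.80 ± 0.57, and the second was -1.30 without the 3 arrays (adjusted p 0.00724 and 0.00484). Tm7sf2, Fdps and Mvk were the 3 of the 10 members called between sets under every alternative. The second passing probe set of Mvk, 1430619_a_at, had a 12 o'clock difference of only -0.22. The other probe set of Fdps, 1438150_at, lay under the filter with a mean of 6.74. Its 12 o'clock difference went the other way, at 2.34, and the alternative that averaged passing probe sets left it out. The test of any difference lost Fdps without 4am a (0.0658) or without 4am b (0.0634).

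Lss, which closes squalene epoxide into lanosterol, read 10.21, 9.62 and 9.80 at 8am, then 10.50, 10.28 and 10.80 at 8pm. It read 9.54, 9.30 and 9.80 at 12pm, then 9.80, 9.94 and 10.40 at 12am, then 9.63, 9.34 and 9.37 at 4pm, then 8.96, 9.69 and 8.91 at 4am. The 8pm values were the highest of the day except for overlap with 12am c, and the sets of 12 and of 4 o'clock lay lower by -0.40 ± 0.18 and -0.88 ± 0.18 (limma adjusted p 0.00779). When the 2 probe sets of Lss that passed the filter were averaged, the adjusted p was 0.326, and the test of any difference lost its call without 8pm a (0.0520) or 8pm c (0.0574). Ebp, a sterol isomerase of the late pathway, read 12.22, 11.55 and 11.78 at 8am, then 11.70, 12.05 and 11.69 at 12pm, then 11.55, 11.40 and 11.41 at 4pm, then 11.82, 11.66 and 11.99 at 8pm, then 11.96, 11.91 and 11.57 at 12am, then 9.42, 10.81 and 11.56 at 4am. Its call rested on 4 o'clock, at -0.82 ± 0.26 with an adjusted p of 0.0308. Without the 3 arrays the difference was -0.32 and the adjusted p 0.237, and leaving out 8am a, 4pm b, 4pm c or 8pm c alone also ended the call (0.0507 to 0.0642). For Mvd the test of any difference lost its call in 16 of the 18 fits that left out 1 array (0.0528 to 0.120).

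The other 10 tested enzymes of the sterol pathway, like Fdft1, passed none of the tests, and each varied by less than 2 log2 units over the 18 arrays. Hmgcs1, which makes HMG-CoA, had a lowest, median and highest level of 12.65, 13.04 and 13.81. The kinase Pmvk spanned 8.15, 9.66 and 10.05, and the isomerase Idi1 10.68, 11.34 and 12.10. Sqle, squalene epoxidase, spanned 11.19, 12.01 and 12.35. Cyp51, which demethylates lanosterol, spanned 10.17, 10.82 and 11.19. Of the enzymes after it, Msmo1 spanned 10.87, 11.71 and 12.40 and Nsdhl 10.44, 10.77 and 11.19. Hsd17b7, a keto-steroid reductase of the same steps, spanned 8.55, 9.48 and 10.33. Sc5d and Dhcr7, which act at the end of the pathway, spanned 9.91, 10.95 and 11.43, and 10.87, 11.39 and 11.68. Sc5d was the second member of the pathway, beside Tm7sf2, whose 6 arrays of 8am and 8pm lay above all 6 of 12pm and 12am, with a difference of -0.46 ± 0.21 and a limma adjusted p between sets of 0.0687.

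Among the regulators, Srebf1 and Insig1 were called between sets. Srebf1 read 11.23, 11.23 and 11.13 at 8am, then 11.01, 10.77 and 11.56 at 8pm. It read 10.35, 10.62 and 9.82 at 12pm, then 10.67, 10.46 and 10.34 at 12am, then 10.21, 9.89 and 10.27 at 4pm, then 9.36, 11.29 and 10.70 at 4am. Every array of 8am and 8pm lay above every array of 12pm, 12am and 4pm, while 4am b lay among the high values. The differences were -0.78 ± 0.26 for 12 o'clock and -0.87 ± 0.26 for 4 o'clock (limma adjusted p 0.0269, and 0.00258 without the 3 arrays). Leaving out 8am a, 8am b, 8am c or 8pm c ended the call (0.0512 to 0.0752).

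Insig1 read 10.87, 10.72 and 11.32 at 8am, then 11.27, 11.30 and 11.37 at 8pm. It read 10.61, 10.60 and 10.28 at 12pm, then 10.49, 10.31 and 9.84 at 12am, then 10.85, 10.69 and 10.01 at 4pm, then 11.06, 12.31 and 10.51 at 4am. Its highest value was 4am b, and the arrays of 8am and 8pm lay above all of 12pm and 12am. The 12 o'clock difference was -0.79 ± 0.25, a 1.73-fold difference, with a limma adjusted p of 0.0473. That call was lost in 14 of the 18 fits without 1 array (0.0526 to 0.114), and without the 3 arrays of high ratio the adjusted p was 0.00349 and the 4 o'clock difference -0.67 in place of -0.24. Stard4, a carrier of sterol between membranes, spanned 11.96, 12.30 and 12.59 and its 12 and 4 o'clock differences were 0.04 ± 0.13 and 0.02 ± 0.13.

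In the fatty acid branch Fasn, fatty acid synthase, read 11.76, 10.98 and 11.28 at 8am, then 11.04, 11.60 and 10.73 at 12pm, then 11.48, 9.97 and 11.31 at 4pm, then 11.65, 11.64 and 12.23 at 8pm, then 11.92, 11.37 and 11.16 at 12am, then 9.44, 10.17 and 10.84 at 4am. The 3 arrays of high Gapdh ratio held its 3 lowest values. Its 4 o'clock difference was -1.05 ± 0.28 with a limma adjusted p of 0.0236, and -0.47 with 0.200 without those arrays, and the call was also lost without 4pm b alone (0.0615) or 4am a alone (0.0550). Acly, which makes cytosolic acetyl-CoA from citrate, spanned 12.31, 12.90 and 13.40. Acss2, which makes it from acetate, spanned 11.15, 11.85 and 12.92 and had an adjusted p of 0.0507 between sets. Me1, malic enzyme, a source of NADPH, spanned 7.75, 8.62 and 9.27.

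Acacb encodes the mitochondrial acetyl-CoA carboxylase, and its mean of 7.05 lay just under the filter at 7.10, so it has no test. It read 5.35, 5.82 and 5.57 at 8am, then 7.86, 6.67 and 7.28 at 12pm, then 7.47, 7.86 and 8.76 at 4pm, then 5.55, 5.65 and 5.46 at 8pm, then 8.35, 8.53 and 7.68 at 12am, then 7.53, 7.60 and 7.97 at 4am. Its 6 arrays of 8am and 8pm lay below all other 12, the opposite of Tm7sf2, as in 1.39% of the genes tested. Its second probe set, 1445754_at, also under the filter, did not separate the sets: 8am c at 6.70 and 8pm b at 6.89 lay above 4am b at 6.05 and 4am c at 6.18.

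Among the desaturases and elongases, Scd2 and Elovl6 were called between sets. Scd2 read 14.37, 14.13 and 14.43 at 8am, then 13.89, 13.96 and 13.53 at 12pm, then 13.59, 13.55 and 13.74 at 4pm, then 14.22, 14.08 and 14.37 at 8pm, then 14.07, 14.07 and 13.85 at 12am, then 13.84, 14.53 and 13.82 at 4am. The arrays of 8am and 8pm lay above all those of 12pm, 12am and 4pm. The 12 o'clock difference was -0.37 ± 0.13 with a limma adjusted p of 0.0346, but with quantile normalization it was -0.08 and the adjusted p 0.556. Leaving out 1 array ended this call in 8 of 18 fits (0.0518 to 0.0859). Elovl6, which lengthens the product of fatty acid synthase, read 10.16, 10.05 and 9.90 at 8am, then 9.59, 9.47 and 10.18 at 12pm, then 10.80, 10.89 and 10.48 at 4pm, then 10.12, 10.11 and 10.09 at 8pm, then 9.37, 10.23 and 10.09 at 12am, then 10.06, 10.02 and 10.61 at 4am. It was the only one of the 10 that was higher at 4 o'clock than at 8 o'clock, by 0.41 ± 0.18 (limma adjusted p 0.0288), with the 3 values of 4pm above all of 8am and 8pm. The mean over its 3 probe sets gave an adjusted p of 0.489, and leaving out 12pm a, 12pm b, 4pm a or 4pm b ended the call (0.0541 to 0.0663). Elovl5, an elongase of polyunsaturated chains, spanned 10.79, 11.29 and 12.64. Fads1, a desaturase that works with Fads2, spanned 8.97, 9.68 and 10.12.

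**Figure D4:**
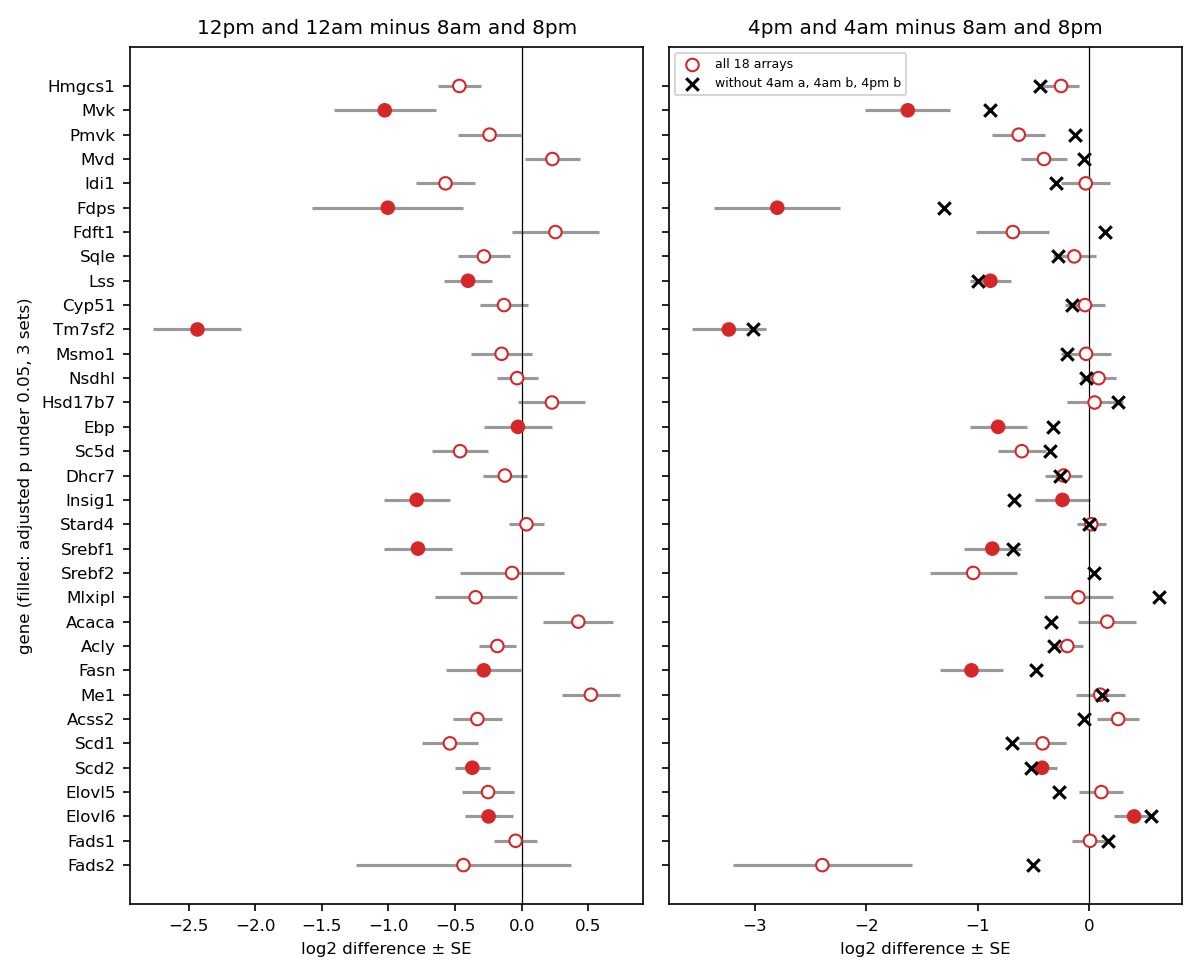
Points are the log2 difference of the 12pm and 12am set (left) and of the 4pm and 4am set (right) from the 8am and 8pm set, with its SE, for the 33 tested members; filled points passed the test between the 3 sets, and crosses give the difference without 4pm b, 4am a and 4am b. Most points lie left of 0, Tm7sf2 lies farthest left in both panels, and the crosses of Fdps, Fads2, Srebf2 and Fasn lie nearer to 0 than their points.

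Most members leaned the same way between sets, though not all by much. The set of 12pm and 12am was lower than that of 8am and 8pm in 27 of 33 members, with a median of -0.25, against 45.7% of all genes and a median of 0.04. With quantile normalization 22 of 33 were lower, with a median of -0.12, against 50.2% of all genes. The 4 o'clock set was lower in 24 of 33, with a median of -0.24, against 44.1% of all genes and a median of 0.08. With quantile normalization 23 of 33 were lower there, with a median of -0.10, against 43% of all genes. All 6 arrays of 8am and 8pm lay above all 6 of 12pm and 12am in 5 members (15.2%), namely Tm7sf2, Sc5d, Insig1, Srebf1 and Scd2, against 5.85% of all genes, and below them in 0 members, against 7.06% of all genes. These counts were not tested over the list. Under the deposited scaling the median signal of an array also separated the sets of 8 and 12 o'clock. It was 161 to 184 at 8am and 8pm, 188 to 252 at 12pm and 12am, and 127 to 209 at 4pm and 4am. The shares of all genes were not matched to the members for signal level. How far this bears on the counts was not tested beyond the quantile normalization above. The summed signal of the 10 colonocyte markers had a median of 141971 at 8am and 8pm, 118638 at 12pm and 12am, and 102111 at 4pm and 4am. Its ranges overlapped, with 128924 to 153099, 103948 to 134100 and 92286 to 129241. Single markers differed between 8 and 12 o'clock. Lgals4 read 14.52 to 14.82 and then 13.98 to 14.45, but Aqp8 read 12.86 to 13.23 and then 12.99 to 13.55. The summed signal of the 7 goblet cell markers ran from 106997 to 140607, 84328 to 121441 and 76744 to 106100 over the 3 sets, with overlap between neighbouring ranges. Marker sums keep the deposited scaling. The 5 measured markers of pancreatic acinar cells, of 7 listed, all passed the filter. Their mean log2 level separated the set of 8am and 8pm from the others. It was 8.70 to 9.18 at 8am and 8pm, 9.83 to 14.49 at 12pm and 12am, and 9.27 to 13.61 at 4pm and 4am. Single markers overlapped, such as Prss2 with 7.52 in 8pm c and 7.11 in 4am c, and Ctrb1 with 6.65 and 5.80. The summed signal overlapped, with 18198 to 31741, 25639 to 115666 and 26949 to 62741, and Cela1 and Sycn were high in every array. Of the others, Cpa1, a pancreatic carboxypeptidase, had a signal of 6.78 in its lowest array and 19780 in its highest. The 8 immune markers, of which 7 were measured and 6 passed, had a median summed signal of 8269, 9317 and 13300 in the 3 sets, with ranges that overlapped. In tissue RNA, fewer cells of a type and less RNA per cell cannot be told apart, and the part of these markers in the members' differences was not tested.

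Other cell types of the wall and its surroundings make much lipid as well. Of 9 adipocyte markers 7 were measured and 5 passed the filter, with a summed signal of 1399 to 4200 at 8am and 8pm, 2744 to 4355 at 12pm and 12am, and 1931 to 10058 at 4pm and 4am. The signal of Lep, an adipocyte hormone, was at most 38.9, while that of Adipoq ranged from 11.4 to 1505 and that of Fabp4 from 749 to 7004. Retn ranged from 196 to 1088, Plin4 from 205 to 615, Lipe from 38.7 to 359 and Cidec from 24.9 to 185. The highest Adipoq, the highest Fabp4 and the highest sum, 10058, were those of 4am a, an array of high Gapdh ratio. The 4pm arrays summed to 2762 to 4287. The 11 squamous and sebaceous markers, of which 6 passed, summed to 1062 to 1855, 1127 to 5087 and 1284 to 5497 in those sets. Their part in the members' values was not tested.

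Light against dark and the 3 pairs of opposite times gave no called member. For the average over the light (8am, 12pm, 4pm) minus that over the dark, limma called 0 of 33 members and 0% of all genes. An unadjusted p under 0.05 was found for 4 members (12.1%) and 799 genes (6.21% of all). Scd1 had -0.45 ± 0.17, Elovl5 -0.37 ± 0.16, Hsd17b7 0.48 ± 0.21 and Fads1 0.28 ± 0.13, each with an adjusted p of 0.749. In the same order these differences were -0.29, -0.12, 0.14 and 0.20 without the 3 arrays of high ratio. In the light 20 of 33 members were lower, with a median of -0.07, against 48.6% of all genes. Without the 3 arrays of high ratio 26 of 33 were lower, 15 of them among the 17 sterol pathway genes, against 51.9% of all genes. Without 4am c, in turn, 16 of 33 were lower, against 48.3% of all genes.

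Between 8am and 8pm, 0 of 33 members were called by limma, against 0.00777% of all genes. An unadjusted p under 0.05 was found for 3 members (9.09%), against 2.88% of all genes. They were Lss at -0.65 ± 0.26, Mvd at -0.70 ± 0.29 and Fads1 at 0.55 ± 0.22. Here 13 of the 17 sterol pathway genes were lower at 8am, with a median of -0.31, against 55.6% of all genes and a median of -0.03. The same 13 count was found with quantile normalization, where the median was also -0.31, against 55.5% of all genes and a median of -0.03. This pair of times holds none of the arrays of high ratio, so its differences are the same without them. Its SEs and p-values still rest on those arrays, because a gene's variance was fitted over all times. Without them the SE of every tested member was smaller. Lss then had -0.65 ± 0.21, Mvd -0.70 ± 0.23, Fads1 0.55 ± 0.19 and Fdft1 -0.31 ± 0.16, where Fdft1 had an SE of 0.46 with all arrays. The p-values of this pair hold only for the fit with all arrays. Between 12pm and 12am, 0 of 33 members and 0% of all genes were called, with 0 members and 1044 genes (8.11%) at an unadjusted p under 0.05. Lss, at -0.50 ± 0.26, had the lowest adjusted p of a member in this pair, 0.640. These counts and this rank hold only for the fit with all arrays, since the SEs of this pair also rest on the arrays of high ratio. Without those arrays the differences were the same and the SE of every tested member was smaller. For Pmvk, at -0.60, the SE was 0.34 with and 0.23 without them. For Acaca, at -0.55, it was 0.37 and 0.23, and for Lss 0.26 and 0.21. At 12pm 10 of 17 sterol pathway genes (58.8%) were lower, near the 53.8% of all genes. With quantile normalization 13 of 17 were lower, against 51.2% of all genes.

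The pair of 4pm and 4am holds all 3 arrays of high ratio. With all arrays 12 of 33 members (36.4%) had an unadjusted limma p under 0.05, against 19.7% of all genes, and 0 were called, against 0.0466% of all genes, the lowest adjusted p being 0.137 for Scd1 at -1.10 ± 0.30. Fdft1 had 1.47 ± 0.46, Fdps 2.31 ± 0.80, Srebf2 1.40 ± 0.55 and Mlxipl 1.13 ± 0.44. Without the 3 arrays, which leaves 4pm a, 4pm c and 4am c, Scd1 stood at -0.59 ± 0.34, Fdft1 at 0.05 ± 0.24 and Mlxipl at 0.20 ± 0.46, and the sign turned for Fdps at -0.60 ± 0.51 and Srebf2 at -0.38 ± 0.32. Of the 17 sterol pathway genes 11 were higher at 4pm and 35.3% were lower, near the 41.1% of all genes that were lower. Without the 3 arrays 13 of the 17 (76.5%) were lower at 4pm, against 47.3% of all genes. The direction of this group over the pair therefore turned with the arrays used, and with all arrays it lay near that of all genes. Leaving out 4am c, the 1 array of its time with a ratio near 1, raised the members called to 17 in this pair, where 31.8% of all genes were then called, to 9 in the test of times 12 h apart (19.5% of all genes) and to 6 in light against dark (7.42%).

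Probe sets of the same gene did not agree in the 3 arrays of high ratio. There 8 of 33 members (24.2%) were lower by more than 1 log2 unit than in the other 15 arrays, against 14.1% of all genes. The 34 genes had 77 probe sets, of which 67 passed the filter, and in 9 of the 21 genes with several passing probe sets the shift in these arrays differed by more than 1 between them. For Fads2, 1419031_at shifted by -3.92 and 1449325_at by -2.77, but 1443838_x_at by 0.02. For Scd2 the probe set used, 1415822_at, shifted by -0.04, while 1415823_at shifted by -4.43 and 1415824_at by -3.53. For Fdft1 the values were -1.65 and 0.21, and for Acly the probe set used shifted by 0.13 and 1425326_at by -2.74. Both probe sets of Srebf2 shifted, by -2.02 and -2.41. The single passing probe set of Fdps shifted by -3.52.

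**Figure D5:**
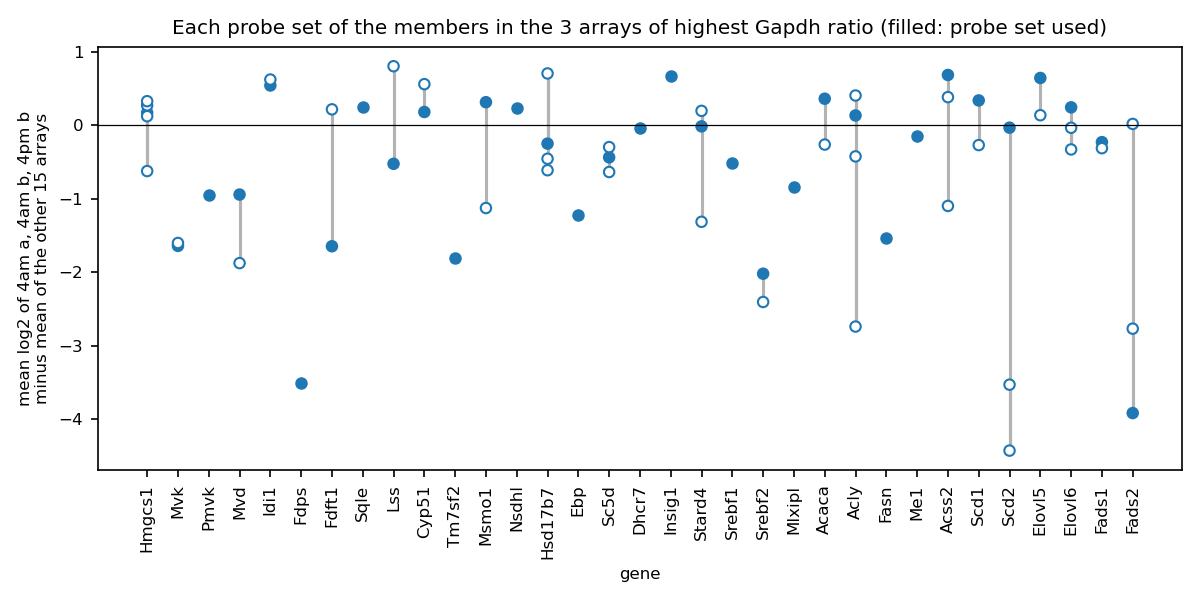
Each point is a passing probe set of a tested member (columns) and gives the mean log2 level of 4pm b, 4am a and 4am b minus the mean of the other 15 arrays; filled points are the probe sets used and lines join those of 1 gene. Scd2, Fads2 and Acly have probe sets both near 0 and below -2.7, and Srebf2 has both below -2.

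Without the 3 arrays the test between sets called 15 of 33 members, against 31.6% of all genes, and the test of any difference 11, against 22.8%. The 10 members called with all arrays kept their call except Ebp and Fasn, and the 7 that entered were Fads2 with an adjusted p of 0.0107, Scd1 with 0.0186, Acaca with 0.0202, Hmgcs1 with 0.0248, Mlxipl with 0.0354, Sc5d with 0.0410 and Idi1 with 0.0494 in limma. For Fads2 the 12 o'clock and 4 o'clock sets then lay at -0.44 and -0.50 from 8am and 8pm, and for Scd1 at -0.54 and -0.69.

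Genes that act beside the members were counted in the same way. Of 23 other genes of sterol sensing, transport and turnover 17 were tested: 0 were called for a 24 h curve, 2 for any difference (11.8% against 17% of all genes) and 4 between sets (23.5% against 35%). Mbtps2, a protease that releases the SREBP proteins, had a limma adjusted p of 0.00988 between sets, with 12 and 4 o'clock differences of -0.42 ± 0.17 and 0.39 ± 0.17. Erlin1, a protein of the endoplasmic reticulum that acts with the Insig proteins, had 0.05 ± 0.16 and 0.64 ± 0.16 (adjusted p 0.0113). Insig2, the relative of Insig1, had 0.11 ± 0.20 and 0.81 ± 0.20 (adjusted p 0.0142), and the lysosomal sterol carrier Npc1 -0.30 ± 0.23 and -0.86 ± 0.23 (adjusted p 0.0238). Of 22 other genes of fatty acid and triglyceride synthesis 20 were tested, with 0 calls for a 24 h curve, 6 for any difference (30% against 17% of all genes) and 8 between sets (40% against 35%). The lowest adjusted p values between sets were those of the elongase Elovl7 (0.00658), the mitochondrial synthase Oxsm (0.00832), the nuclear receptor Pparg (0.0109) and Agpat2, an enzyme of phospholipid and triglyceride assembly (0.0111). Their 12 o'clock differences were -0.63 ± 0.15 for Elovl7, -1.01 ± 0.23 for Oxsm, -1.02 ± 0.27 for Pparg and -0.21 ± 0.17 for Agpat2.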

How the data were processed

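RNA from distal colon of mice was hybridised to 18 Affymetrix arrays. The deposited value is an intensity, 1 linear signal for every probe set, which the authors computed with GCOS, per the submitters' processing notes, which give no version. After trimming 2% of probe sets at either end, each array had a mean of 500, so 1 scaling factor was applied per array. Precision is limited by the number of arrays. Of 45101 probe sets, 34945 had 1 gene symbol in the platform annotation, 932 several and 9160 were not listed; those with 1 symbol were used. Deposited intensities were taken as log2(signal + 16) and kept where the mean over all arrays reached the 40th percentile, 7.10. The probe set of highest mean stood for a gene.

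Group means of the 6 times and a 24 h cosine were fitted to every gene in R 4.3.3 with limma 3.58.1, with a variance trend. Contrasts and F tests came from these fits, and p-values, two-sided, were adjusted by Benjamini-Hochberg across the 12870 genes, with a threshold of 0.05. Fits were tested on simulated data with independent noise and planted effects much larger than the members' median amplitude. The power to find effects as small as the members' was not tested. Arrays were grouped by the time in their titles. Members, gene lists and tests were chosen with earlier results of these data known. Every member is named; values in every array are given for members past the threshold in any test, for the 2 largest amplitudes per role group and, chosen after its values were seen, for Acacb. Of each other pathway list the 4 genes of lowest adjusted p between sets are named. Alternatives changed the constant, scaling, filter, probe set, moderation, array weights, block and arrays used.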

Additional observations from a re-analysis of the deposited data

How the results depend on the processing

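The numbers of called members depended most on array weights and on which arrays entered. With array weights from limma the called members, with the share of all genes called, were 27 (69.7%) for any difference between times, 16 (29.8%) for times 12 h apart, 23 (61.6%) between the 3 sets, 8 (15.1%) for light against dark, 1 (2.22%) for 8am against 8pm and 13 (25.4%) for 4pm against 4am, and the cause was not tested. Without 4pm b, 4am a and 4am b the test of any difference called 11 members (22.8% of all genes), and without those and 4pm c, an alternative chosen after seeing the data, 9 (20.5%). Leaving out 1 array at a time gave 2 to 21 members for any difference, 0 to 9 for times 12 h apart, 5 to 20 between sets, 0 to 6 for light against dark and 0 to 17 for 4pm against 4am. The upper ends were all reached without 4am c, which leaves only arrays of high Gapdh ratio at 4am and where 53.9%, 19.5%, 58.5%, 7.42% and 31.8% of all genes were called in those tests. The lower ends were 2 without 8pm a or 8pm c and 5 without 4pm b, with 6 between sets without 8am a or 8pm c. Sharing a letter did not pair arrays across times (mean correlation of deviations -0.01 over 45 pairs), and with the letter as a replicate block 4 members were called for any difference, 11 between sets and 0 in the other tests. Other constants, scaling, filters, probe set choices and moderation left each count within 1.5 times its value. The 24 h curve called 0 members under all alternatives run. No detection calls were used, so levels near the filter, such as Acacb, carry unknown background.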
